A study of Homo sapiens with 18 samples.

Results

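The difference in chromatin accessibility between GFP low and GFP high Raji cells was compared between 72 h and 24 h in every peak of the deposited count table. For each of the 71318 peaks the log2 difference of GFP low minus GFP high was taken at 72 h, the same difference at 24 h was subtracted from it, and the result is called here the difference of differences. All 71318 of 71318 peaks are members, and 12 of the 18 columns of the table enter the calculation, with the 6 columns of 48 h beside them. A positive value means that GFP low stood higher relative to GFP high at 72 h than at 24 h. A value of 1 is a 2-fold change of the contrast.

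The groups were GFP low and GFP high cells at 72 h and GFP low and GFP high cells at 24 h, with 3 replicates each per the labels. All were Raji cells, an established B-cell line from a Burkitt lymphoma, labelled with the genotype Smarca4+/+. The series follows degradation of SMARCA4 (BRG1), through a degron that auxin switches on. No label says what GFP reports, which GFP level goes with loss of the protein or when auxin was given, and 1 cell line carries all groups.

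SMARCA4 and its paralog SMARCA2 are the alternative ATPases of the BAF complexes, which slide and evict nucleosomes and so keep regulatory DNA open. Their action is best known at enhancers, which lie away from gene starts and are more cell-type specific than promoters. Omni-ATAC-seq reads out such open DNA, because a transposase cuts and tags it where nucleosomes leave it exposed. The purpose of sampling at several times was to follow accessibility as the protein is degraded.

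The promoter sequences below belong to gene-end peaks described further on. They show which letters lie under a contrast that was lower at 72 h (ZNF587, MAFF, RPL27) and under one that was higher (BCL7C, CD28). Each runs 5′ to 3′ on the strand of its gene, from 250 bases before to 50 bases after the start, from RefSeq on GRCh38.p14. Capitals mark matches on either strand to the GC box, the CCAAT box, the ETS site, the E-box and the cyclic AMP response element, found among 10 motifs that are spelled out with the promoter results. The CD28 promoter holds none of the 10 and is in lower case throughout.
ZNF587, chr19:57849609-57849908, plus strand: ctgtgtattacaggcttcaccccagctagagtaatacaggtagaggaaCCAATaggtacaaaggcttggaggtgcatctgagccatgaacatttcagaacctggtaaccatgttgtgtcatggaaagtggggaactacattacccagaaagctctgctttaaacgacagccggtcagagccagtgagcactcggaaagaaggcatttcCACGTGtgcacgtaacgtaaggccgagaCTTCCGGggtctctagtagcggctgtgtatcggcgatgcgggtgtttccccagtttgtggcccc
MAFF, chr22:38201744-38202043, plus strand: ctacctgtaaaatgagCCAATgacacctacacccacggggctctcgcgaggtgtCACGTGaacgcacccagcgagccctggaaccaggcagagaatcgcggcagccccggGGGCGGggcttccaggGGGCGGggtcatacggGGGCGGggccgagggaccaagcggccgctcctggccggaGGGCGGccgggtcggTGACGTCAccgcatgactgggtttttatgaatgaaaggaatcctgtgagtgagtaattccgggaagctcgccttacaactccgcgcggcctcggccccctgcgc
RPL27, chr17:42998169-42998468, plus strand: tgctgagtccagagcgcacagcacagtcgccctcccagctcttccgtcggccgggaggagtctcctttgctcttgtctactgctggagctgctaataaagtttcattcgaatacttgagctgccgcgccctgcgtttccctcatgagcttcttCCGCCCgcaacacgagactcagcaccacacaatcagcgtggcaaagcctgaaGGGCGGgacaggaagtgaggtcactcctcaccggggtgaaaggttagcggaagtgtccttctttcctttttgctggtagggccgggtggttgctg
BCL7C, chr16:30894028-30894327, minus strand: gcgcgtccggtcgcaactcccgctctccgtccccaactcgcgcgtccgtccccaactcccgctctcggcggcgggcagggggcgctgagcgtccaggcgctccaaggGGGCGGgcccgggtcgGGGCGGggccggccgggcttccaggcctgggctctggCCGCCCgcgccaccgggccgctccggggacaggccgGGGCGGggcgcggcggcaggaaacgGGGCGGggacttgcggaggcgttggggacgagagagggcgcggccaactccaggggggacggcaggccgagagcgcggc
CD28, chr2:203706389-203706688, plus strand: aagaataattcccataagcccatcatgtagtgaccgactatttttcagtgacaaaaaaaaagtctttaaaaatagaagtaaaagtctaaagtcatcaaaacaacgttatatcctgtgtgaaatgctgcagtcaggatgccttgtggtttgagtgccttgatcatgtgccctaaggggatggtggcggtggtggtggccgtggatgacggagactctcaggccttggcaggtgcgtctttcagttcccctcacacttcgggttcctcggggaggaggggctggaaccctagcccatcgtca

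Counts per column ran from 7106939 to 11171849. The 3 columns of a group differed by 1.778 to 1.814 times the variance of counting in all 18 pairs, with no added spread in strong peaks (1.817 in the highest eighth of peaks against 1.808 in the lowest). They were therefore summed to 1 library for each GFP level and time. The libraries held 29790483 counts in GFP low and 24677828 in GFP high at 72 h, and 27646157 in GFP low and 22908652 in GFP high at 24 h. With 1 library per group, a difference of differences has no replicate check, and its 95% interval covers counting error only, with the counting variance multiplied by 1.798. Gene-end peaks were present for 6 of 8 B-cell markers (among them PAX5, EBF1 and MS4A1, while BLK lacked one), at a summed level of 261.5 to 291.0 CPM (counts scaled to library size). The 6 of 14 T-cell markers with a gene-end peak summed to 89.34 to 113.9 CPM, 2 of 12 myeloid markers to 57.4 to 75.08 CPM and 4 of 12 epithelial and stromal markers to 62.04 to 68.97 CPM.

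The GFP contrast was narrower at 72 h than at 24 h. Over peaks, the SD of the contrast on the log2 scale came to 0.548 (24 h), 0.443 (48 h) and 0.434 (72 h). GFP low stood at least 2-fold below GFP high in 5822 peaks (24 h), 2746 peaks (48 h) and 2732 peaks (72 h). The difference of differences had a median of -0.002 and quartiles of -0.221 and 0.231, and its extremes were -2.16 and 2.59. At least 2-fold higher stood 774 peaks, 1.09% of all, and at least 2-fold lower 424 peaks, 0.595% of all. With loess scaling over abundance the split was 606 higher and 550 lower. With 1.5-fold as the limit the counts were 4873 higher (6.83%) and 3435 lower (4.82%). The counting interval lay above 0 in 5096 peaks (7.15%) and below 0 in 5459 (7.65%). In bulk libraries, fewer cells with an open region and a less open region in each cell cannot be told apart.

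Much of this spread was of the size that counting gives. The SD over all peaks, 0.379, set against a median counting SE of 0.278, and the SD of the ratio of value to SE was 1.371. That ratio was 1.175 in the eighth of peaks with the fewest counts and 1.674 in the eighth with the most. Of the peaks with at least a 2-fold change in either direction, 602 lay in the lowest eighth and 0 in the highest. The peaks that reached 2-fold were weak, with a median of 91.38 counts per library among the higher and 93.0 among the lower, against 198.8 over all peaks.

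The 48 h pair of libraries allowed 1 test with an estimate of spread. It fitted a straight-line change of the contrast over 24, 48 and 72 h in all 6 libraries. The spread was the distance of the 48 h contrast from that line, since no group has a repeat library. A contrast that bends at 48 h therefore adds to the spread. The quasi-likelihood test of edgeR called 0 of 71318 peaks higher (0%) and 0 lower (0%) at a Benjamini-Hochberg adjusted p of 0.05, and the smallest adjusted p was 0.19. At an unadjusted p under 0.05 stood 3411 peaks (4.78%), 1966 of them higher and 1445 lower. DESeq2 called 0 higher and 0 lower as well, with 113 peaks at an unadjusted p under 0.05. The model left 1 residual degree of freedom. In simulated data of 71318 peaks it recovered 20 of 100 peaks with a 2-fold change and 95 of 100 with a 4-fold change. It also called 10 unchanged peaks. The changed peaks were drawn only from those with an expected mean of at least 100 counts per library. Their change ran in a straight line, and all peaks shared 1 dispersion. Recovery of weaker peaks was not simulated. Peaks that reached 2-fold in the data had a median of 91.38 counts (higher) and 93.0 (lower), so these rates do not hold for many of them. No peak, gene or group below was therefore shown to change with time beyond that spread. The p-values set a change against the departure from the line at 48 h, not against repeat libraries. That departure may be technical, since no label says that libraries came from separate cultures. How much of it was a bend over time was not tested.

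The 774 peaks with a higher contrast were mainly peaks that stood low in GFP low at 24 h. Their contrast had a median of -1.23 (24 h), -0.34 (48 h) and -0.03 (72 h), and their 24 h contrast was below 0 in 767 of 774. These contrasts chose the peaks, except that of 48 h. At 48 h, 11.37% of them stood at least 2-fold lower in GFP low, against 3.85% of all peaks, without matching for abundance. Weak peaks were more often that low at 48 h. The weakest of 5 classes of abundance with equal numbers of peaks held 1206 of the 2746 such peaks. How much of the excess went with abundance was not tested. Their median level was 3.53 CPM in GFP low and 3.41 in GFP high at 72 h, against 2.16 in GFP low and 4.95 in GFP high at 24 h. The 48 h contrast lay between those of 24 and 72 h in 80.2% of them, against 32.0% of all peaks, but a wide gap between the outer times leaves more room for a value between them. These peaks lay in or within 50 kb of 505 protein-coding genes, and 241 had none that near.

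The 424 peaks with a lower contrast had a median contrast of 0.61 (24 h), 0.01 (48 h) and -0.59 (72 h). Their median level was 2.53 CPM in GFP low and 3.94 in GFP high at 72 h, against 4.57 in GFP low and 3.23 in GFP high at 24 h. The larger part of the change lay in the GFP low libraries in 69.6% of them, and in 62.4% of the 774 higher peaks, against 53.3% of all peaks. At least 2-fold lower in GFP low at 48 h were 3.77% of them, against 3.85% of all peaks, again without matching for abundance. The 424 peaks belonged to 338 genes, and 73 had no gene within 50 kb.

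Of the peaks at least 2-fold higher, the 10 whose interval bound nearer to 0 lay furthest from 0 were taken as leading, and likewise 10 of the lower. Among the leading higher peaks, one inside EML1 (chr14:99774882-99775382), which codes for a microtubule-binding protein, held 3.50, 2.81 and 3.71 CPM in the GFP low columns and 4.52, 2.50 and 2.96 CPM in the GFP high columns at 72 h. At 24 h it held 0.956, 0.913 and 0.489 CPM in GFP low and 4.71, 5.87 and 3.10 CPM in GFP high. The columns overlapped at 72 h and were apart at 24 h, and the contrast came to -2.43 (24 h), -1.31 (48 h) and 0.03 (72 h). The difference of differences was 2.46 (95% counting interval 1.43 to 3.50), and the trend test gave an edgeR adjusted p of 0.19.

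A stronger peak on chromosome 2 (chr2:224638198-224638698), with no protein-coding gene within 50 kb, held 29.0, 31.9 and 32.4 CPM in GFP low and 23.6, 28.1 and 25.3 CPM in GFP high at 72 h. At 24 h it held 13.8, 12.1 and 13.1 CPM in GFP low and 26.8, 26.9 and 24.9 CPM in GFP high. Every GFP low column was above every GFP high column at 72 h and below every one at 24 h. From 24 h to 72 h the log2 level changed by 1.26 in GFP low and by -0.02 in GFP high. Its difference of differences was 1.28 (0.97 to 1.60).

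A peak inside FOXP2 (chr7:114437536-114438036), a gene for a forkhead transcription factor, held 3.61, 4.75 and 4.26 CPM in GFP low and 2.07, 1.62 and 1.64 CPM in GFP high at 72 h. At 24 h the columns held 0.837, 1.48 and 1.76 CPM in GFP low and 2.50, 2.87 and 2.64 CPM in GFP high. The order of the GFP levels was thus opposite at 72 and 24 h, with no overlap of columns at either, and the difference of differences was 2.12 (1.12 to 3.13).

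**Figure D1:**
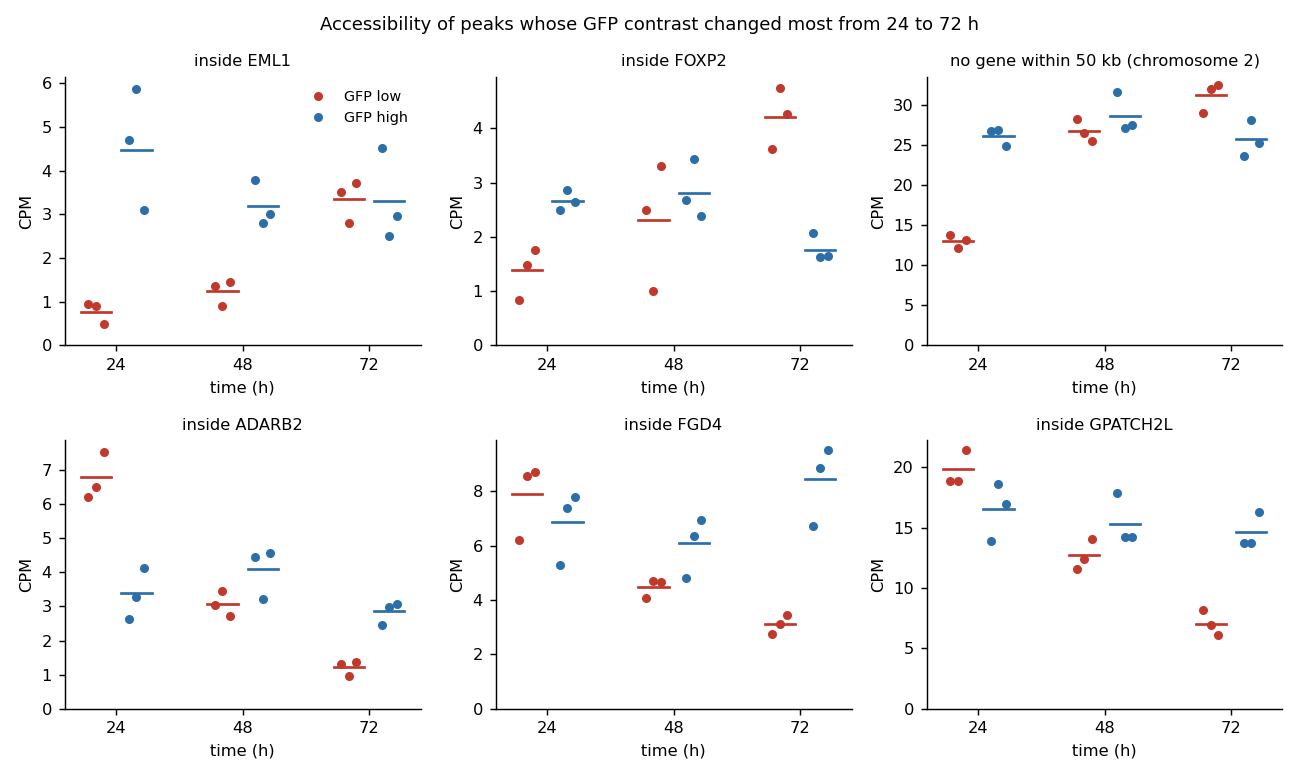
Level in CPM (vertical axis) at 24, 48 and 72 h (horizontal axis) of 6 peaks, GFP low in red left of GFP high in blue. Points are the 3 columns of a group and lines the summed library. In the upper panels GFP low stands below GFP high at 24 h, as at EML1 with 0.768 against 4.47 CPM, and in the lower panels GFP low stands below GFP high at 72 h, as at ADARB2 with 1.22 against 2.85 CPM.

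The other 7 of the 10 leading higher peaks had at most 8.13 CPM in any library. Peaks inside OLFM3 (chr1:101921789-101922289), which codes for a secreted olfactomedin, and inside MTUS2 (chr13:29495200-29495700), for another microtubule-associated protein, had differences of 2.18 and 1.79. A peak 15.1 kb outside LGI1 (chr10:93742575-93743075), a gene of a secreted neuronal protein, reached 1.96, and one 46.7 kb outside OXCT1 (chr5:41683125-41683625), for an enzyme that uses ketone bodies, reached 1.73. A peak inside CDC73 (chr1:193241018-193241518), which codes for a subunit of the PAF1 transcription elongation complex, stood at 1.59 (0.92 to 2.26). At OXCT1 the GFP high library moved more than the GFP low library, by -1.27 against 0.46 on the log2 scale. The other two peaks, at chr21:8222270-8222770 (2.59) and chr21:8230442-8230942 (2.13), lie 3.0 and 11.1 kb beyond the ribosomal RNA gene RNA45SN2. This is a repeat of many near-identical copies, and reads there cannot be placed with certainty, so both values are uncertain.

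On the lower side, a peak inside ADARB2 (chr10:1674276-1674776), a member of the adenosine deaminase family that edits RNA, held 1.31, 0.971 and 1.36 CPM in GFP low and 2.46, 2.99 and 3.06 CPM in GFP high at 72 h. At 24 h it held 6.22, 6.50 and 7.54 CPM in GFP low and 2.63, 3.28 and 4.13 CPM in GFP high. The columns were apart at both times, in opposite order, and the level in GFP low was 3.06 CPM at 48 h. The difference of differences was -2.16 (-3.07 to -1.25), the lowest of all peaks.

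A peak inside GPATCH2L (chr14:76203360-76203860) gave 8.21, 6.91 and 6.07 CPM in GFP low and 13.7, 13.7 and 16.3 CPM in GFP high at 72 h, against 18.9, 18.8 and 21.4 CPM in GFP low and 13.9 to 18.6 CPM in GFP high at 24 h. GFP low was below GFP high at 72 h and above it at 24 h, without overlap of columns. Again the change lay in GFP low, at a log2 change of -1.49, with -0.17 in GFP high. Inside FGD4 (chr12:32422669-32423169), which codes for an exchange factor of the GTPase CDC42, a peak held 3.12 CPM in GFP low and 8.44 in GFP high at 72 h, and 7.90 in GFP low and 6.88 in GFP high at 24 h. Its columns were apart at 48 and 72 h and overlapped at 24 h, and its difference of differences was -1.61 (-2.22 to -1.0).

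The other leading lower peaks had levels under 12 CPM. A peak 4.8 kb outside GPR132 (chr14:105069954-105070454), a G-protein-coupled receptor gene of lymphocytes, stood at -1.39 (-1.95 to -0.83). Peaks 45.1 kb outside PSEN2 (chr1:226825290-226825790), for a catalytic subunit of gamma-secretase, and inside PTCH1 (chr9:95480871-95481371), for the Hedgehog receptor, stood at -1.61 and -1.45. Peaks inside MATN2 (chr8:97935764-97936264), for a matrix protein, and GLRA1 (chr5:151903247-151903747), for a glycine receptor subunit, stood at -1.66 and -1.77. A peak without a gene within 50 kb (chr7:106346520-106347020) stood at -1.49, and 1 gene-end peak, that of HEATR4 (chr14:73477525-73478025), was among the 10, at -1.37 (-1.95 to -0.79).

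At the 2-fold limit lay ordinary peaks. Just inside it, among peaks with a mean of at least 100 counts over the 4 libraries, were those inside MEIS2 and outside KIF21B on the higher side and inside LRRC3C and FSD1L on the lower side. Just outside were peaks inside LPIN3 and at chr10:21449244-21449744 on the higher side and inside COX7A2L and outside BET1 on the lower. All lay within rounding of the limit, and the widest interval among those on the higher side ran from 0.19 to 1.80.

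Position relative to genes separated the medians, by less than the spread within each class. Of 13713 peaks within 1 kb of either end of a protein-coding gene, 34.75% had a difference of differences above 0, against 49.7% of all peaks. The median was -0.09 at gene ends, 0.02 in gene bodies (30806 peaks) and 0.04 between genes (26799 peaks). At gene ends it came to -0.06 with loess scaling and to -0.05 when centred within classes of gene density, the same in sign but smaller. Gene ends made up 2.33% of the peaks at least 2-fold higher and 6.37% of those at least 2-fold lower, and 19.2% of all peaks. Gene-end peaks were strong, with a median level of 23.4 CPM, where gene-body peaks had 6.72 CPM and intergenic peaks 6.10 CPM, and strong peaks seldom reached 2-fold. In each of 10 bins of abundance the median at gene ends was below those of gene bodies and of intergenic peaks, at -0.16 against 0.01 and 0.02 in bin 8 and at -0.05 against 0.01 and 0.02 in bin 10.

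The gene-end contrast did not move steadily over time. It had a median of 0.25 (24 h), 0.08 (48 h) and 0.17 (72 h). Taken from 48 h to 72 h, the median difference of differences at gene ends was 0.08, opposite in sign to that from 24 h to 72 h, while from 24 h to 48 h it was -0.17. Over all positions, 1095 peaks were at least 2-fold higher from 24 h to 48 h and 200 from 48 h to 72 h, with 386 and 481 at least 2-fold lower. These steps share the 48 h libraries. They were computed after the pattern had been seen.

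Local gene density ordered the change more widely than position did. Peaks with 0 protein-coding genes within 500 kb on either side (1907 peaks) had a median of 0.17, and the median was lower in each denser class, at 0.10, 0.04, -0.00, -0.05, -0.13, -0.18 and, with 41 to 78 genes (1461 peaks), -0.20. Above 0 were 66.7% of peaks in the sparsest class and 27.5% in the densest. The density classes were drawn up after the data had been seen, neighbouring peaks are not independent, and no test was made.

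The 24 h pair carried most of this gradient. From the sparsest to the densest class the median contrast ran from -0.27 to 0.24 at 24 h, from 0.01 to -0.12 at 48 h and from -0.12 to 0.04 at 72 h. The 48 h contrast thus sloped the other way, and the 24 h contrast sloped more steeply than that of 72 h. Both GFP levels took part: from 24 h to 72 h the median level changed by 0.02 in GFP low and -0.13 in GFP high in the sparsest class, and by -0.06 in GFP low and 0.13 in GFP high in the densest. The gradient was there away from gene ends (0.17 to -0.12) and among gene ends (0.06 with 1 to 3 genes, -0.24 with 41 to 78), and also away from gene ends without chromosomes 17, 19 and 22 (0.17 to -0.08). Sparse classes hold weaker peaks, at a median of 4.92 CPM against 10.6 CPM in the densest, and the 24 h GFP high library was the smallest of the 6. With loess scaling over abundance the medians of these classes were 0.15 and -0.17, and the part of library size in the gradient was not tested.

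**Figure D2:**
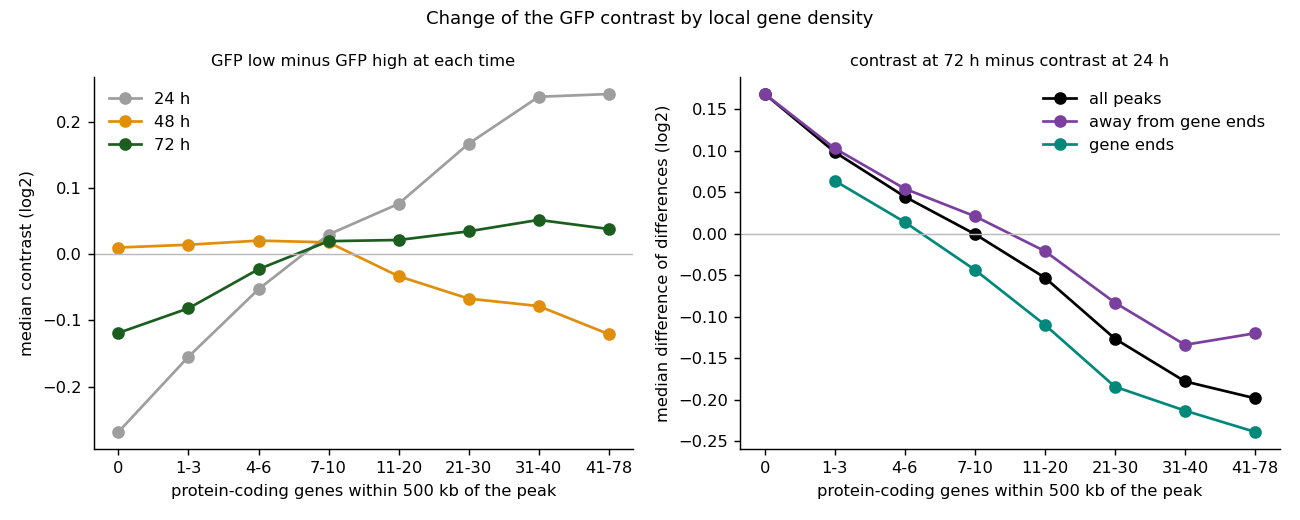
Medians (log2) by the number of protein-coding genes within 500 kb of a peak. The left panel shows the contrast GFP low minus GFP high at 24, 48 and 72 h, which spans -0.27 to 0.24 at 24 h, and the right panel the contrast at 72 h minus that at 24 h for all peaks, for peaks away from gene ends and for gene ends, which runs from 0.17 to -0.20 over all peaks.

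Gene-dense chromosomes were among the lowest. Chromosome 19, the most gene-dense in these peaks with a median of 31 genes within 500 kb, had a median difference of differences of -0.27, and 21.1% of its 1936 peaks were above 0. Chromosome 22 followed at -0.21 and chromosome 17 at -0.18. Away from gene ends the medians were -0.21 on chromosome 19, -0.13 on chromosome 22 and -0.11 on chromosome 17. The highest were chromosome 4 at 0.07 and chromosome 13 at 0.07, with medians of 6 and 5 genes within 500 kb. On chromosome 19, 1.65% of peaks were at least 2-fold lower and 0.258% at least 2-fold higher, the reverse of the order over all peaks.

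The contrast at 48 h, which the difference of differences does not use, set apart the peaks that stood low in GFP low at that time. Over bins of that contrast the median difference of differences was not ordered throughout. It was 0.22 from -1.5 to -1, -0.05 from 0 to 0.25 and 0.09 from 1 to 3. The 2746 peaks at least 2-fold lower in GFP low at 48 h had a median of 0.22, with 69.1% above 0, and the 68411 peaks changed less than 2-fold had a median of -0.01, with 48.9% above 0. Their median contrast was -0.93 at 72 h and -1.14 at 24 h, so they stood low in GFP low at every time and less so at the last. Within 5 classes of abundance with equal numbers of peaks, from weak to strong, the medians were 0.21, 0.24, 0.20, 0.23 and 0.10 for the peaks lower at 48 h, the last over 23 peaks, against 0.06, 0.03, -0.00, -0.03 and -0.04 for the others. With 11 to 20 genes within 500 kb the medians were 0.19 for peaks lower at 48 h and -0.06 for the others. At least 2-fold higher in difference of differences were 3.21% of the peaks lower at 48 h, 4.97% of the 161 peaks at least 2-fold higher at 48 h and 0.991% of those changed less. At least 2-fold lower were 0.583% of the peaks lower at 48 h, 2.48% of those higher and 0.591% of those changed less. In the weakest of the 5 classes of abundance, 5.39% of the peaks lower at 48 h and 3.64% of those changed less were at least 2-fold higher. At least 2-fold lower in that class were 1.16% and 1.98%. The 161 peaks higher at 48 h were weak, at a median of 3.13 CPM, and their median depended on the processing, at 0.09 with TMM scaling, -0.02 with loess scaling, 0.01 among peaks with a mean of at least 100 counts and 0.03 without GFP low V2 or without GFP high V1 of 72 h.

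**Figure D3:**
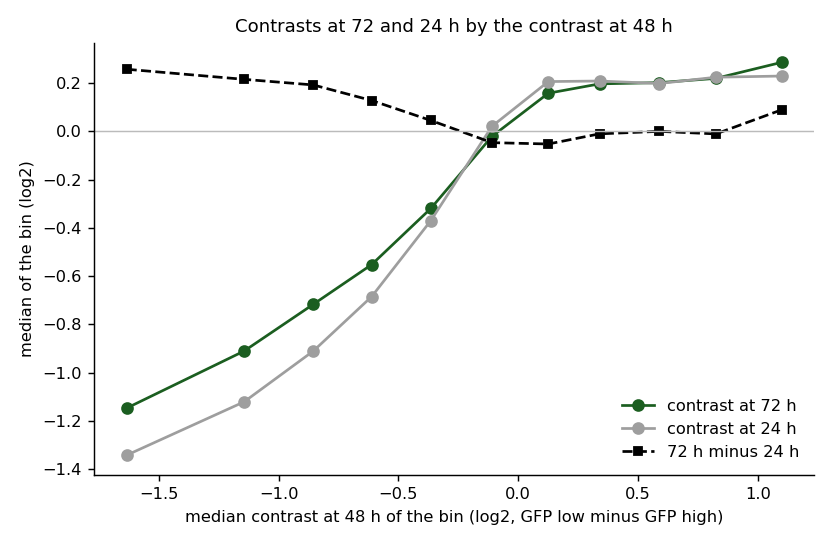
Peaks were binned by their contrast at 48 h (horizontal axis, median of the bin, log2), and the vertical axis gives the median contrast at 72 h and at 24 h and the median of 72 h minus 24 h. In the bin from -1.5 to -1 the contrast was -0.91 at 72 h and -1.12 at 24 h, and above a 48 h contrast of 0 the lines of both times lie close together.

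Sums over whole genes have more counts than single peaks and vary less. Among 4117 genes with at least 5 peaks, the difference of differences of the summed counts had an SD of 0.157 and a median counting SE of 0.0759, and no gene reached 2-fold in either direction. Its interval lay above 0 for 693 genes and below 0 for 632. The leading genes on the higher side, by the interval bound nearer to 0, were FMN2, MYRFL, CNTNAP2, TMEFF2 and ADAMTS19. FMN2, which codes for an actin-nucleating formin, had 131.9 CPM in GFP low and 135.3 in GFP high at 72 h over its 15 peaks, against 91.79 in GFP low and 142.4 in GFP high at 24 h. The GFP levels lay close together at 72 h and apart at 24 h, with a difference of differences of 0.60 (0.46 to 0.73), above 0 in 13 of 15 peaks. A single peak (chr1:240295687-240296187) held 64.2 of the 131.9 CPM in GFP low at 72 h and 33.0 of the 91.79 CPM at 24 h. The median over the 15 peaks was 0.49.

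CNTNAP2, a long gene of the neurexin family, had 153.3 CPM in GFP low and 157.1 in GFP high at 72 h, against 110.6 in GFP low and 159.3 in GFP high at 24 h, and 25 of its 26 peaks were above 0. Its sum stood at 0.49 (0.37 to 0.62). MYRFL, a homologue of the myelin regulatory factor gene, stood at 0.61, the membrane protein gene TMEFF2 at 0.60 and the metalloprotease gene ADAMTS19 at 0.54, and all 6, 7 and 5 of their peaks were above 0. At MYRFL 1 peak held 67.0 of the 113 CPM in GFP low at 72 h, and the median over its 6 peaks was 0.46. In the 5 leading genes of the higher side the median number of genes within 500 kb of a peak was 1 to 9.

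The genes described here from the lower side had denser surroundings, with 16 to 37 genes within 500 kb. They also held gene-end peaks, 3 of 5 at TEX2, 4 of 5 at ZBTB7B, 3 of 5 at DGCR2 and 1 of 5 at HDAC1. Each of the 5 genes of the higher side had 0, and density and position were not separated here. ZBTB7B, which codes for a zinc finger repressor of T-cell lineage choice (ThPOK), had 77.29 CPM in GFP low and 77.07 in GFP high at 72 h, against 88.97 in GFP low and 58.83 in GFP high at 24 h. HDAC1, a histone deacetylase gene, had 62.11 CPM in GFP low and 69.0 in GFP high at 72 h, against 60.6 in GFP low and 47.65 in GFP high at 24 h. At ZBTB7B both libraries moved and at HDAC1 mainly that of GFP high, with differences of -0.59 (-0.77 to -0.42) and -0.50 (-0.69 to -0.30). TEX2, for a lipid-binding membrane protein, stood at -0.63 and DGCR2 at -0.55. None of the 5 peaks of TEX2 and none of the 5 of HDAC1 was above 0, while 1 of 5 was at ZBTB7B and 1 of 5 at DGCR2. The 1 at DGCR2 was at least 2-fold higher, against the direction of its sum. At HDAC1 the median over the 5 peaks was -0.20, nearer to 0 than its sum. These genes were picked by the value itself, so their values describe them and test nothing.

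**Figure D4:**
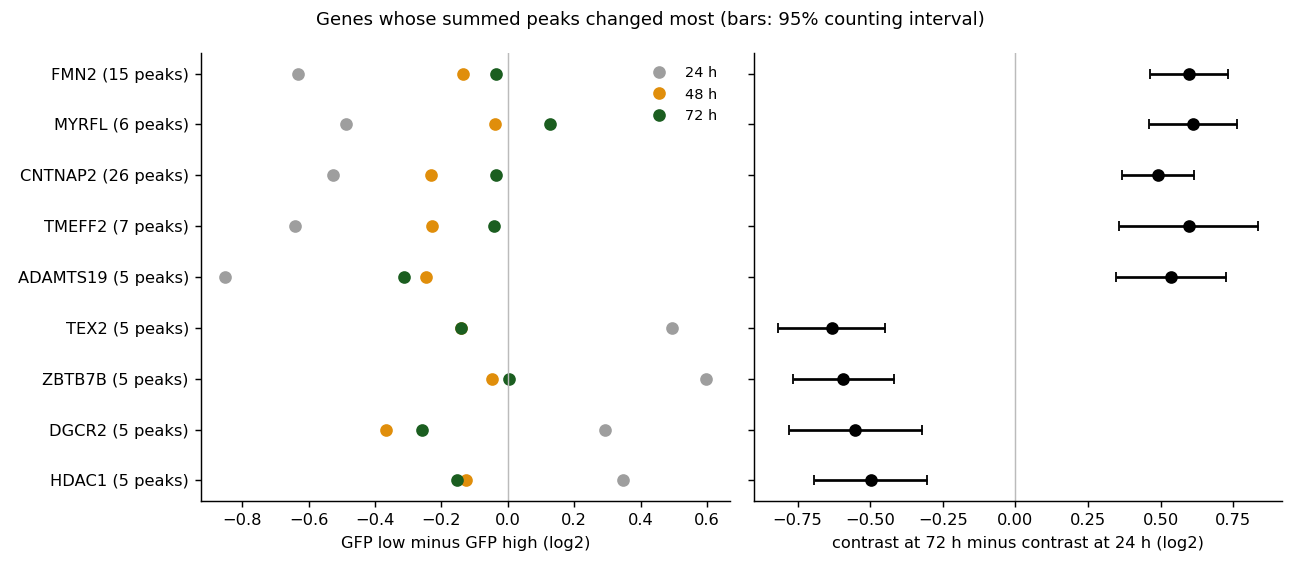
Genes (rows, with their number of peaks) that led on the higher side (5, above) and on the lower side (4, below) in the difference of differences of summed counts. The left panel shows GFP low minus GFP high (log2) at 24, 48 and 72 h, and the right panel the contrast at 72 h minus that at 24 h with 95% counting intervals, from 0.61 at MYRFL to -0.63 at TEX2. In most rows the 24 h point stands apart and those of 48 and 72 h lie closer together.

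Gene ends with the highest lower bound were those of ADGRB3, NRSN1 and CGAS. CGAS, the sensor of cytosolic DNA (chr6:73452046-73452546), held 10.9, 9.71 and 9.78 CPM in GFP low and 12.1, 12.1 and 12.9 CPM in GFP high at 72 h, against 3.71, 6.62 and 3.33 CPM in GFP low and 9.84, 12.3 and 14.8 CPM in GFP high at 24 h. GFP low stood below GFP high at both times, less so at 72 h, and the difference of differences was 1.16 (0.65 to 1.67). At ADGRB3, an adhesion receptor gene (chr6:69390027-69390527), the level was 3.77 CPM in GFP low and 4.38 in GFP high at 72 h, against 4.86 in GFP low and 14.96 in GFP high at 24 h. That change of 1.39 (0.76 to 2.03) lay in GFP high, whose log2 level changed by -1.76 where that of GFP low changed by -0.36, and NRSN1, for a neuronal membrane protein, stood at 1.36.

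Gene ends with the lowest upper bound were those of HEATR4, PATZ1 and ZNF587. ZNF587, a KRAB zinc finger gene on chromosome 19 whose promoter is printed above, held 2.08, 2.05 and 1.81 CPM in GFP low and 3.49, 3.12 and 3.28 CPM in GFP high in its peak (chr19:57849470-57849970) at 72 h. At 24 h the peak held 5.38, 3.65 and 3.62 CPM in GFP low and 2.22, 1.91 and 2.41 CPM in GFP high. The GFP levels were in opposite order at these times, without overlap, and the value was -1.62 (-2.52 to -0.73). PATZ1, for a zinc finger transcription factor (chr22:31346538-31347038), had 4.79 CPM in GFP low and 7.03 in GFP high at 72 h, against 7.57 in GFP low and 4.17 in GFP high at 24 h, a value of -1.40 (-2.02 to -0.77).

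At SMARCA4 the gene-end peak (chr19:10960534-10961034) held 17.2, 14.9 and 18.02 CPM in GFP low and 11.9, 14.8 and 13.3 CPM in GFP high at 72 h, against 19.5, 23.2 and 20.3 CPM in GFP low and 15.9, 9.42 and 13.9 CPM in GFP high at 24 h. GFP low was the higher at 72 h and at 24 h, and at 48 h it was the lower, with 16.7 CPM in GFP low and 19.7 in GFP high. The interval of the difference of differences, -0.35 (-0.73 to 0.03), included 0. The edgeR adjusted p of the trend was 1. Degradation acts on the protein, so this peak checks no label. At SMARCA2 the peak that holds the start (chr9:2014916-2015416) stood at 0.07 (-0.08 to 0.23) and the second gene-end peak at -0.04 (-0.34 to 0.25).

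The peaks that hold a gene start were examined by promoter sequence. Of these 6125 peaks, with a promoter of 300 bases in RefSeq, the median difference of differences was -0.11. In 4 classes of GC content with equal numbers, the median was -0.10 in the lowest (22.3 to 59.3% GC), -0.10 and -0.12 in the middle classes and -0.14 in the highest (71.7 to 94.0% GC). Of 10 motifs searched on both strands, GGGCGG, the GC box, was in 73.4% of these promoters and in 44.6% of all 27305 promoters of the table. Promoters with it had a median of -0.12 and those without it -0.10.

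AGATGGC, the motif of YY1, was in 8.88% (5.61% of all) with a median of -0.15, against -0.11 without it. TGANTCA, the AP-1 site, was in 3.51% (7.76% of all) with a median of -0.13, and TGACGTCA, the cyclic AMP response element, in 3.79% (1.98% of all) with -0.14. Within the lowest class of GC, the median was -0.13 with AGATGGC against -0.09 without it, -0.14 with TGANTCA against -0.10 and -0.16 with TGACGTCA against -0.10. Within the highest class it was -0.20 with AGATGGC, -0.19 with TGANTCA (29 promoters) and -0.16 with TGACGTCA, against -0.14 without each. For the other motifs except GCATGCGC, the median with the motif was also the lower, or equal after rounding, in both classes. CCAAT was in 2450 of the 6125 (35.7% of all) at -0.12, CCGGAAG, the ETS site, in 23.2% (10.7% of all) at -0.12, CACGTG, the E-box, in 11.02% (7.44% of all) at -0.13 and TATAAA in 4.90% (11.95% of all) at -0.12. ATGCAAAT, the octamer of B-cell promoters, was in 1.44% (1.80% of all) at -0.11, and GCATGCGC, part of the NRF1 site, in 7.004% (3.27% of all) at -0.10. A motif can overlap another, and a match is a description of letters.

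Gene lists were read by their counts and medians beside those of all peaks, with a median of -0.00 and 49.7% above 0. Away from gene ends the median of all peaks was 0.03. In 0 of 21 lists did the trend test of edgeR call a peak. B-cell surface and lineage genes had the lowest median, -0.18 over 47 peaks of 13 of 14 genes, with 27.7% of peaks above 0, and away from gene ends it was -0.32. Their contrast had a median of 0.10 (24 h), -0.12 (48 h) and -0.10 (72 h). Their peaks had a median of 25 genes within 500 kb. The class of 21 to 30 genes had a median of -0.13 over all its peaks and -0.08 away from gene ends. A peak inside FCER2 (chr19:7699763-7700263), the gene of the low-affinity IgE receptor CD23, held 4.45 CPM in GFP low and 8.96 in GFP high at 72 h, against 6.99 in GFP low and 5.72 in GFP high at 24 h, a value of -1.28 (-1.88 to -0.69). The gene-end peak of MS4A1, which codes for CD20 (chr11:60455375-60455875), stood at 0.22 (0.05 to 0.39).

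B-cell identity regulators were near the background, with a median of -0.02 over 343 peaks of 20 of 20 genes, 2 peaks at least 2-fold higher (0.583%, against 1.09% of all peaks) and 0 lower (0.595% overall). Inside PAX5, the B-lineage commitment factor (chr9:36855363-36855863), a peak held 6.04 CPM in GFP low and 4.94 in GFP high at 72 h, against 3.47 in GFP low and 5.85 in GFP high at 24 h, a value of 1.03 (0.36 to 1.70). Inside BCL11A, a zinc finger regulator of B-cell development (chr2:60515562-60516062), a peak held 6.93 CPM in GFP low and 13.0 in GFP high at 72 h, and 16.4 in both at 24 h, a value of -0.90 (-1.32 to -0.47). Single peaks of the list thus lay on both sides. B-cell receptor signalling had a median of -0.01 over 209 peaks, with a peak inside VAV2, for a guanine exchange factor, at 1.26 (0.41 to 2.10) and one inside the kinase gene LYN at -0.49 (-0.76 to -0.23).

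Genes of germinal centre and later B-cell states split in their medians. Light zone and CD40 genes stood at -0.13 (87 peaks, 31.03% above 0). Of these 87 peaks 0 were at least 2-fold higher (1.09% of all peaks) and 0 at least 2-fold lower (0.595% of all peaks), shares that give few in so small a list. A peak inside TRAF1, an adaptor of CD40 signalling, stood at -0.71 (-1.14 to -0.27). NF-kB subunits and inhibitors stood at -0.17 (73 peaks of 11 of 12 genes, 30.1% above 0). Their peaks had a median of 9 genes within 500 kb, where the class of 7 to 10 genes had a median of -0.00. Of these 73 peaks 0 had an interval above 0 (7.15% of all peaks) and 13 had one below (7.65% of all peaks), among them a peak 37.2 kb outside TNFAIP3, the gene of the inhibitor A20, at -0.76 (-1.19 to -0.33). Dark zone genes stood at 0.02 (118 peaks), with a peak 1.5 kb outside S1PR2, the receptor that confines germinal centre B cells, at -0.89 (-1.40 to -0.39) and one inside MME (CD10) at 0.44 (0.14 to 0.74).

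Plasma cell genes stood at 0.02 (58 peaks of 12 of 12 genes). CD38, an ectoenzyme of the plasma cell surface, had the peaks of this list with the nearer bound furthest from 0 in both directions, one inside the gene at 0.62 (0.28 to 0.97) and one 38.2 kb outside at -1.06 (-1.98 to -0.15). Memory B-cell and migration genes stood at 0.02 (146 peaks of 15 of 16 genes). The gene-end peak of the integrin gene ITGA4 (chr2:181456564-181457064) held 51.0 CPM in GFP low and 59.8 in GFP high at 72 h, against 39.4 in GFP low and 63.1 in GFP high at 24 h, a value of 0.45 (0.24 to 0.66). The gene-end peak of the chemokine receptor gene CCR7 (chr17:40565370-40565870) held 3.33 CPM in GFP low and 6.95 in GFP high at 72 h, against 6.77 in GFP low and 6.79 in GFP high at 24 h, a value of -1.04 (-1.67 to -0.41).

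Among MHC class II genes 5 of 15 had a peak, with a median of -0.11 over 21 peaks. Of so few peaks, 0 had an interval above 0, against 7.15% of all peaks. A peak inside CD74, the invariant chain gene, stood at -0.76 (-1.11 to -0.41). Interferon response genes stood at 0.03 (64 peaks) and AP-1, BATF and MAF genes at -0.06 (76 peaks). The peak at the start of MAFF, a small MAF factor gene on chromosome 22 (chr22:38201625-38202125), held 8.49 CPM in GFP low and 10.6 in GFP high at 72 h, against 10.8 in GFP low and 8.04 in GFP high at 24 h. Its columns were apart in opposite order at these times, and its value was -0.73 (-1.22 to -0.25).

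Chromatin regulators were near or slightly below the background. BAF subunit genes had a median of -0.04 (156 peaks of 25 of 26 genes), with 13 intervals above 0 and 10 below, shares near the 7.15% and 7.65% of all peaks. The peak at the start of BCL7C, a subunit gene whose promoter is printed above (chr16:30893816-30894316), held 6.08 CPM in GFP low and 3.78 in GFP high at 72 h, against 4.64 in GFP low and 6.24 in GFP high at 24 h, a value of 1.09 (0.43 to 1.76), with columns that overlapped at both times. A peak 9.5 kb outside SMARCE1, another subunit gene, stood at -0.90 (-1.45 to -0.36). Genes of ISWI, CHD and INO80 remodellers stood at -0.06 (121 peaks) and Polycomb genes at -0.06 (90 peaks). Away from gene ends the Polycomb median came to 0.06, against 0.03 for all peaks away from gene ends.

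Lists of general function stood below the background. Housekeeping genes had a median of -0.13 (73 peaks) and ribosomal protein genes one of -0.10 (73 peaks, 54.8% of them gene ends). Away from gene ends these lists had -0.04 and -0.03, against 0.03 for all peaks away from gene ends. Housekeeping peaks had a median of 8 genes within 500 kb, where the class of 7 to 10 genes had a median of -0.00. The medians were -0.08 for p53 response and apoptosis genes (121 peaks) and -0.05 for cell cycle and replication genes (98 peaks). The peak at the start of RPL27, a large-subunit protein gene on chromosome 17 (chr17:42997963-42998463), held 24.0 CPM in GFP low and 19.9 in GFP high at 72 h, against 30.2 in GFP low and 15.3 in GFP high at 24 h, a value of -0.71 (-1.04 to -0.38). GFP low was higher at both times, without overlap of columns at 24 h only. Inside CDK6, a cell-cycle kinase gene (chr7:92674411-92674911), a peak held 18.7 CPM in GFP low and 23.8 in GFP high at 72 h, against 11.9 in GFP low and 24.3 in GFP high at 24 h, a value of 0.68 (0.33 to 1.02).

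Markers of other cell types gave medians of -0.05 for T cells (46 peaks), -0.10 for myeloid cells (18 peaks) and 0.03 for epithelial and stromal cells (38 peaks). The peak at the start of CD28, a T-cell costimulatory receptor gene (chr2:203706298-203706798), held 22.3 CPM in GFP low and 29.9 in GFP high at 72 h, against 12.8 in GFP low and 25.8 in GFP high at 24 h, a value of 0.58 (0.26 to 0.91). A peak 9.7 kb outside CEBPA, a myeloid factor gene on chromosome 19 (chr19:33311989-33312489), stood at 1.76 (0.89 to 2.64) and one inside CD33 at -1.34 (-2.32 to -0.37). The peaks named from a list are those whose interval bound nearer to 0 lay furthest from 0, and they are not typical of it.

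**Figure D5:**
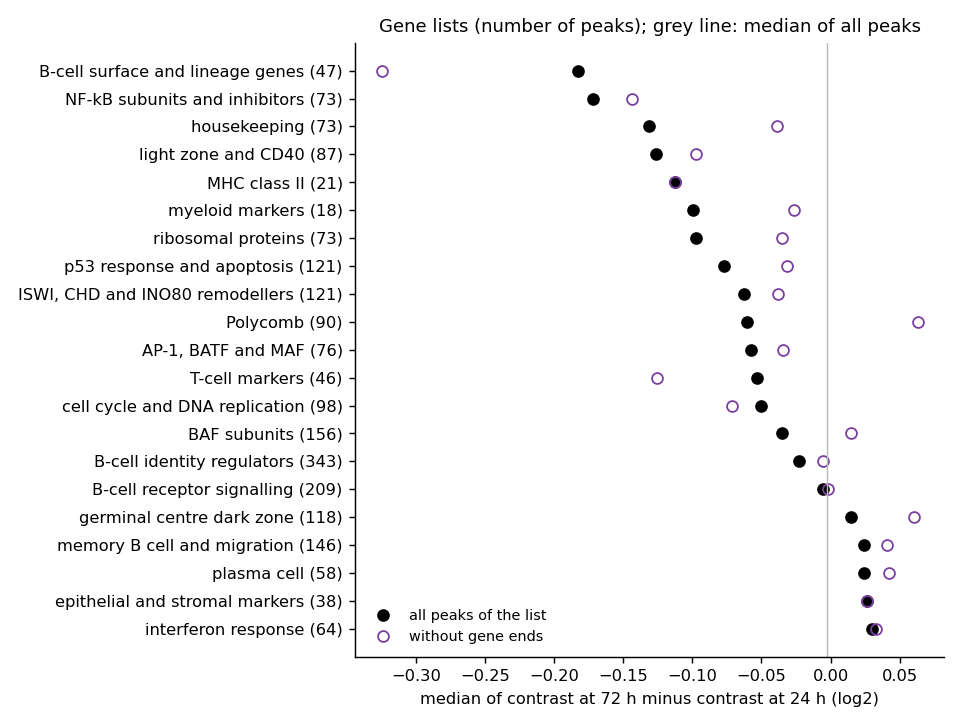
Median of the contrast at 72 h minus that at 24 h (horizontal axis, log2) over the peaks of each gene list (rows, with the number of peaks), for all peaks of the list and without gene ends. The grey line is the median of all peaks with gene ends, -0.00, and without gene ends that median was 0.03. List medians span -0.18 (B-cell surface and lineage genes) to 0.03 (interferon response).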

How the data were processed

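Omni-ATAC-seq libraries of Raji cells of low or high GFP level at 24, 48 and 72 h were used. The authors deposited a table of raw read counts, in whole numbers, with 71318 peaks of hg38 as rows and 18 measurement columns. The submitters' processing notes name FastQC, BWA, deepTools and R 4.2.1, with no role for each. Which caller made the peaks and whether duplicate reads were removed is not given in the sources used here. Duplicates that were kept would widen the counting noise.

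Column headers name the GFP level, the day (D1 to D3, taken as 24, 48 and 72 h) and a V number, which no label ties to a replicate. Columns that shared a V number across groups did not deviate together (Pearson's r over peaks from -0.0056 to 0.0184 in 45 pairs), so the main fits have no block. Totals are 22908652 to 29790483 counts per library. CPM used TMM scaling in edgeR 4.0.16 (R 4.3.3) and log2 values a prior count of 2. The trend test was edgeR's robust quasi-likelihood test, with time as a factor and GFP level by time step, and Benjamini-Hochberg adjustment over all peaks. The test was checked on simulated data, and its low-count filter removed 0 peaks. Intervals cover counting error only, and reads without molecular identifiers are not independent molecules.

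Peaks took the protein-coding gene of a RefSeq table (GRCh38.p14, 19939 genes, 94 readthrough genes left out) whose end lay within 1 kb or whose body held them, or failing that the closest gene up to 50 kb away. So 59536 peaks were given a gene. The assignment is by position and does not show that a peak regulates the gene. The table has no strand, so both gene ends count.

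Named peaks are those at least 2-fold changed with the interval bound furthest from 0 (10 of each direction, 1 per gene), the leading gene ends, genes with at least 5 peaks, trend p, the SMARCA4 and SMARCA2 gene ends, 1 peak of each direction per list, and those at the 2-fold limit. Not all are described, and 1 gene of the lower side is not reported here. The comparison, the lists and the rules were chosen with earlier results of these data known. Alternatives were other scalings, DESeq2 1.42.0, prior counts, count minimums, thresholds, columns left out, fits on columns and, chosen after seeing the data, centring by gene density, leaving out 3 chromosomes and the steps through 48 h.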

Additional observations from a re-analysis of the deposited data

Results flagged for a closer look

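In 15 of the peaks named by rule, the columns of GFP low and GFP high did not overlap at 72 h or at 24 h and stood in opposite order at these times. The trend test of edgeR over 24, 48 and 72 h called 0 of them, at adjusted p from 0.19 to 1. The difference between 72 h and 24 h by itself was not tested, since each group is 1 library. Over all peaks this held for 170 (0.238%) where GFP low was above GFP high at 72 h and below it at 24 h, and for 186 (0.261%) where it was the other way round. Columns of a group differed by 1.778 to 1.814 times the counting variance in strong and weak peaks alike, so the absence of overlap compares libraries.

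GFP low stood above GFP high at 72 h and below it at 24 h in 4 of the 15. Their differences of differences were 2.12 inside FOXP2, 1.28 in the chromosome 2 peak that starts at 224638198, 0.86 inside MYRFL and 1.33 in a peak 20.3 kb outside HPRT1, a housekeeping gene of purine salvage.

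In the other 11, GFP low stood below GFP high at 72 h and above it at 24 h. The values were -2.16 inside ADARB2, -1.66 inside MATN2, -1.62 at the start of ZNF587, -1.49 in the chromosome 7 peak that starts at 106346520, -1.45 inside PTCH1, -1.39 outside GPR132 and -1.32 inside GPATCH2L. They were -1.001 inside LRRC3C, -0.89 outside S1PR2, -0.82 in a peak 16.9 kb outside EEF1A1, which codes for a translation elongation factor, and -0.73 at the start of MAFF.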

How the results depend on the processing

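All 20 leading peaks kept at least 2-fold under library size, DESeq2 and loess scaling, a prior count of 0.5 and each column left out. These peaks were picked from the same libraries for an interval bound far from 0. That they stayed at 2-fold was close to given by the choice and is no separate check. With DESeq2 size factors the numbers of peaks at least 2-fold higher and lower were 828 and 398, and with loess scaling 606 and 550, so the excess of higher over lower peaks was smaller with loess. They were 304 and 187 with a mean of at least 100 counts and 4873 and 3435 with a limit of 1.5-fold. Leaving out 1 column gave 858 to 1056 higher and 477 to 625 lower peaks, and using 1 column per group gave 2849 to 3389 and 1993 to 2641, so the counts grow as depth falls.

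The gene-end median was -0.080 with library size, -0.075 with DESeq2 size factors, -0.056 with loess, -0.094 to -0.083 with a column left out and, in alternatives chosen after seeing the data, -0.045 when centred within classes of gene density and -0.064 without chromosomes 17, 19 and 22. It reversed to 0.081 from 48 h to 72 h and was -0.17 from 24 h to 48 h, since these take another pair of libraries, and 200 peaks were at least 2-fold higher from 48 h to 72 h. Peaks lower at 48 h had a median of 0.190 with loess, 0.181 with a limit of 1.5-fold and 0.205 to 0.227 with a column left out. The median of peaks higher at 48 h reversed to -0.021 with loess and was 0.0073 with a limit of 1.5-fold and 0.029 to 0.093 with a column left out. Under the scalings, 19 of 21 list medians kept their sign (B-cell identity regulators and B-cell receptor signalling did not), as did all 10 leading genes. The leading genes were picked by the value itself, so their kept sign is no separate check.

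Fits with columns as replicates compare libraries, not conditions. For the interaction of GFP level and time, edgeR on 12 columns called 702 higher and 676 lower, and 730 and 713 with a replicate block by V number. For the trend, 18 columns gave 305 higher and 239 lower, and 281 and 200 with a replicate block. On 6 libraries the trend test called 0 peaks under every other setting run, including each column left out, and its 1 residual degree of freedom limits what it can call.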
